A study of Mus musculus and Homo sapiens with 43 samples.

Results

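The cytosolic tRNAs for serine, threonine, cysteine, selenocysteine, glutamine, glutamate, phenylalanine and tryptophan were compared between 2 human mammary epithelial lines. They were taken by probe name, leaving out the mitochondrial probes that carry an m prefix, which gave 16 of the 70 tRNA probes. These 16 cover 8 amino acids and 15 anticodons, and 50 of the 70 probes are cytosolic. The study followed leucyl-tRNA synthetase (LARS) in 43 libraries, and the 12 libraries used here profiled tRNA in mcf10a and HCC1806. The line mcf10a is described as non-transformed and LARS-high, although its cell line label reads as a breast cancer line, and HCC1806 is a breast cancer line described as LARS-low. Neither line carried a further genetic change or treatment in the labels. Each line had 3 libraries of charged tRNA, the part that carries an amino acid, and 3 of total tRNA. The growth medium differed as well, RPMI for HCC1806 and DMEM otherwise, and its part cannot be told apart from that of the line.

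Each amino acid is attached to its tRNAs by its own synthetase, and tRNAs that carry the same amino acid but differ in anticodon are called isoacceptors. The first anticodon base pairs with the third codon base and tolerates wobble: an A there is usually edited to inosine, and a U is often modified. Synthetases fall into class I, which here serves Cys, Gln, Glu and Trp, and class II, which serves Ser, Thr and Phe. Selenocysteine has no synthetase of its own: its tRNA is first charged with serine by seryl-tRNA synthetase, the serine is then converted on the tRNA, and the product is used at UGA codons that a signal in the mRNA marks for selenoproteins. The tRNAs for serine and selenocysteine share a long variable arm.

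The probes are named by amino acid and anticodon, with T standing for U. The anticodons studied were AGA, CGA, GCT and TGA for Ser, AGT, CGT and TGT for Thr, CTG and TTG for Gln, and CTC and TTC for Glu. Phe had GAA, Cys had GCA, Trp had CCA, and selenocysteine had 2 probes with the anticodon TCA, named SeC_TCA and SeC(e)_TCA. The labels do not explain the (e). tRNAs with the same anticodon but different bodies share a probe name, and reads shared between close copies cannot be told apart from these names.

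The values are those of the authors' comparison tables, 1 for charged and 1 for total tRNA, which hold 1 row per probe and no value per library. They give a mean normalized count over the libraries, a log2 fold change between the lines with its standard error (SE), and a DESeq2 p-value. The tables do not name the line in the numerator, so each change is described as positive or negative and not as higher or lower in a named line. Every comparison of a charged with a total value below takes the same line as numerator in both tables, which neither table states; where it is otherwise, the total values change sign. The depth of each library is unknown. Summed over the 70 probes, the mean normalized counts came to 5019037 for charged and 1296725 for total tRNA in the authors' deposited tables, and the 16 probes held 15.6% and 14.8% of these sums. Apart from SeC_TCA, their mean normalized counts in the authors' deposited tables ran from 1330 to 230443 charged and from 280 to 50596 total. For SeC_TCA they were 107 and 26.3, and its total value has no adjusted p in the authors' deposited table. The labels do not say whether the 3 libraries of a group came from separate cultures, so the p-values may measure technical spread only.

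Of the 16 probes, 4 differed between the lines in at least 1 table at an adjusted p under 0.05, and 1 of them, SeC(e)_TCA, did so in both. For charged tRNA, SeC(e)_TCA and Thr_TGT were negative and Trp_CCA was positive. For total tRNA, SeC(e)_TCA was negative and Glu_TTC positive. The counts were 3 of 16 probes for charged tRNA (18.8%) against 20.3% of all 69 probes tested, and 2 of 15 for total tRNA (13.3%) against 20.0% of all 65 tested. These shares lie near or under the background of the tables. By side, 1 of the 16 was positive and 2 negative for charged tRNA, where 7.25% and 13.0% of all probes passed on those sides. For total tRNA it was 1 of 15 each, against 12.3% positive and 7.69% negative over all probes. The median change of the 16 was 0.10 charged and -0.08 total, beside 0.12 and -0.02 for all probes with a change. Measured from the charged median, SeC(e)_TCA stood at -1.22, Thr_TGT at -0.84 and Trp_CCA at 0.52, and the same number passed. These calls rest on the normal reference of the deposited test. A t distribution of 4 degrees of freedom, the number that 3 against 3 libraries give, was also applied to the deposited changes and SE. How many degrees of freedom the deposited SE carry is not stated, so this reference may be too strict for them. With this t distribution, 0 of the 16 passed in either table (adjusted p of at least 0.174 charged and 0.0903 total). At the deposited unadjusted p under 0.05 there were 4 in each. How many of all probes passed under either setting was not counted, so neither count can be read as particular to the 16. In bulk RNA of a culture, fewer cells with a tRNA and less of it per cell cannot be told apart, and a change shared by all tRNAs is removed by the normalization.

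Selenocysteine tRNA gave the most negative value of the set in both tables. SeC(e)_TCA had a log2 change of -1.10 in the authors' deposited table for charged tRNA (SE 0.27, DESeq2 adjusted p = 0.00069), a 2.15-fold difference with a 95% interval of 1.49 to 3.10. Of the 69 probes with a charged value it was the lowest. For total tRNA the authors' deposited table gave -1.23 (SE 0.40, DESeq2 adjusted p = 0.0149), a 2.35-fold difference with an interval of 1.36 to 4.06; this call was lost with a Bonferroni adjustment (p = 0.161). The mean normalized counts behind these changes were 21906 and 4308 in the authors' deposited tables. With the same numerator in both tables, its charged minus total difference was 0.12 (95% interval -0.83 to 1.07, normal test, Benjamini-Hochberg adjusted p = 0.926). With the total table turned it would be -2.33 (adjusted p = 1.27e-05).

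The second selenocysteine probe, SeC_TCA, had too few counts to compare. Its change was 0.47 (SE 1.07) charged and -0.69 (SE 1.18) total in the authors' deposited tables, and the charged interval of -1.62 to 2.57 holds the value of the first probe. SeC(e)_TCA minus SeC_TCA came to -1.58 for charged tRNA (95% interval -3.74 to 0.58, normal test, adjusted p = 0.423) and to -0.54 for total tRNA (interval -2.98 to 1.89, adjusted p = 0.849). The SE of SeC_TCA was the highest of the 16 in both tables. Among the other 15 it ran from 0.14 to 0.37 charged and from 0.16 to 0.41 total.

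Serine tRNAs, which are charged by the same enzyme as selenocysteine tRNA, did not pass in either table. Ser_AGA, whose wobble A is the inosine position, stood at 0.36 (SE 0.23) charged and 0.52 (SE 0.32) total in the authors' deposited tables. Ser_TGA stood at 0.23 (SE 0.22) and 0.72 (SE 0.41), the highest total value among the serine probes, in the authors' deposited tables. Ser_GCT, which serves the separate AGC and AGT codon pair of serine and had the most counts of the 4, was at 0.13 and 0.06 and Ser_CGA at -0.03 and -0.13 in the authors' deposited tables. So 3 of the 4 serine probes were positive in both tables and Ser_CGA was slightly negative in both, all within intervals that include 0. The total adjusted p of the 4 ran from 0.177 for Ser_TGA to 0.889 for Ser_GCT in the authors' deposited table (DESeq2).

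The serine isoacceptors were not separated from each other. Over their 6 pairs the widest difference was 0.39 charged, between Ser_AGA and Ser_CGA (95% interval -0.23 to 1.00). For total tRNA it was Ser_CGA minus Ser_TGA at -0.85 (95% interval -1.77 to 0.07). The adjusted p of the serine pairs ran from 0.537 to 0.895 charged and from 0.382 to 0.852 total (normal test, Benjamini-Hochberg over all 50 isoacceptor pairs of a table). Differences of up to 2-fold between Ser_AGA and Ser_CGA remain inside the charged interval.

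Of the 3 threonine tRNAs, 1 passed, for charged tRNA. Thr_TGT, which matches the ACA codon, had a log2 change of -0.72 in the authors' deposited table for charged tRNA (SE 0.22, DESeq2 adjusted p = 0.00627), a 1.65-fold difference with an interval of 1.23 to 2.23; it was lost with a Bonferroni adjustment (p = 0.0668). Its total value was -0.61 (SE 0.25) in the authors' deposited table, which did not pass (DESeq2 adjusted p = 0.0669). Thr_CGT, for the ACG codon, was negative to a similar extent at -0.60 (SE 0.37) charged and -0.79 (SE 0.39) total in the authors' deposited tables, and passed in neither (DESeq2 adjusted p = 0.295 and 0.135). It had the second fewest counts of the 16, at 1330 and 280 mean normalized counts in the authors' deposited tables. Thr_AGT, the inosine-type isoacceptor, stood near 0 with 0.09 (SE 0.15) and 0.10 (SE 0.18) in the authors' deposited tables.

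The charged difference between Thr_AGT and Thr_TGT passed. Thr_AGT minus Thr_TGT was 0.81 (SE 0.27, 95% interval 0.28 to 1.34, normal test, adjusted p = 0.0313), a 1.75-fold difference between isoacceptors of 1 amino acid. For total tRNA the same difference was 0.71 (95% interval 0.10 to 1.32), which did not pass after adjustment (adjusted p = 0.221). Thr_AGT minus Thr_CGT was 0.69 charged and 0.89 total (adjusted p = 0.315 and 0.274), and Thr_CGT minus Thr_TGT was 0.12 and -0.18 (adjusted p = 0.895 and 0.852). Within each table as deposited, Thr_AGT was above 0 and the other isoacceptors below it, with all total signs the opposite if that table is turned, and except that Thr_AGT turned to -0.03 charged when re-centred on the median of all probes. The charged minus total difference of Thr_TGT was -0.12 (95% interval -0.77 to 0.54, normal test, adjusted p = 0.912) with the same numerator in both tables, and would be -1.33 (adjusted p = 0.000489) with the total table turned.

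Phenylalanine, read by Phe_GAA alone, stood at -0.11 (SE 0.22) charged and -0.71 (SE 0.38) total in the authors' deposited tables. It passed in neither (DESeq2 adjusted p = 0.758 and 0.167). Its charged minus total difference was 0.60 with a wide interval of -0.27 to 1.47.

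The glutamate isoacceptors differed from each other for total tRNA, and their charged difference did not pass. Glu_TTC, which matches the GAA codon, had a log2 change of 0.99 in the authors' deposited table for total tRNA (SE 0.16, DESeq2 adjusted p = 4.12e-08), a 1.99-fold difference with an interval of 1.59 to 2.49. Its charged value was 0.53 (SE 0.22) in the authors' deposited table and did not pass (DESeq2 adjusted p = 0.0596). Glu_CTC, for the GAG codon, stood at -0.06 (SE 0.21) charged and -0.20 (SE 0.21) total in the authors' deposited tables (DESeq2 adjusted p = 0.853 and 0.481). Both are charged by the bifunctional glutamyl-prolyl-tRNA synthetase. The difference Glu_CTC minus Glu_TTC was -1.19 for total tRNA (SE 0.26, 95% interval -1.71 to -0.67, normal test, adjusted p = 0.000365), a 2.28-fold difference. For charged tRNA it was -0.59 (SE 0.30, 95% interval -1.18 to 0.00, adjusted p = 0.278).

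This pair and the threonine pair were the isoacceptor differences of the set that passed. Of its 12 pairs, 1 passed for charged and 1 for total tRNA, where 6 and 3 of all 50 pairs did; over both tables that is 2 of 24, against 9.00% of all 100. Both calls were lost with a t distribution of 4 degrees of freedom (adjusted p = 0.411 for threonine and 0.354 for glutamate). With pair errors correlated at 0.5, both pairs passed in both tables. With the same numerator in both tables, Glu_TTC had a charged minus total difference of -0.46 (95% interval -0.99 to 0.07), which did not pass (normal test, adjusted p = 0.627). It would be 1.52 (adjusted p = 2.81e-07) with the total table turned. Whether the separation of the glutamate pair differed between charged and total tRNA was not tested.

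Glu_TTC also stood apart in how its mean count compared between the charged and the total table. Its mean normalized counts were 30114 charged and 22273 total in the authors' deposited tables, a ratio of 1.35. For the other 15 probes the ratio ran from 3.58 for Ser_AGA to 5.25 for Thr_TGT, and Glu_CTC had 3.85. Over the 69 probes with counts in both tables the median ratio was 3.81, and Glu_TTC was the third lowest, 2.82-fold below that median. The lower probes were Arg_TCT at 0.952 and Lys_TTT at 0.957, which were singled out after their values were seen and, like Glu_TTC, have T as the first anticodon base. T is the first base of 16 of the 50 cytosolic probes, and Ile_TAT, also with T, had 1.70. The other probes of the set with this first base ran from 3.58 for Ser_TGA to 5.25 for Thr_TGT, with Gln_TTG at 4.24. Whether the ratio goes with the first base was not tested. Mitochondrial probes had a median ratio of 2.17 and cytosolic probes 4.15. A ratio holds both lines together and the tables were normalized separately, so its size is read only against other probes, and it comes with no replicate error.

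Neither glutamine tRNA passed in either table, and the limits on a difference were narrow for Gln_CTG. Gln_CTG, with the most counts of the 16 (230443 charged), stood at 0.03 (SE 0.17) charged and -0.03 (SE 0.18) total in the authors' deposited tables. Its intervals allow at most a 1.28-fold difference charged and 1.30-fold total. Gln_TTG stood at 0.19 (SE 0.14) and 0.08 (SE 0.26) in the authors' deposited tables (DESeq2 adjusted p = 0.388 and 0.885). Gln_CTG minus Gln_TTG was -0.16 charged (95% interval -0.58 to 0.26, normal test, adjusted p = 0.867) and -0.11 total (interval -0.73 to 0.51, adjusted p = 0.863). A difference between the isoacceptors with T and C as first base was thus not detectable for glutamine, and whether this pair differs from the glutamate pair was not tested.

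Tryptophan, whose single codon is UGG, had a charged value on the positive side. Trp_CCA had a log2 change of 0.64 in the authors' deposited table for charged tRNA (SE 0.17, DESeq2 adjusted p = 0.00186), a 1.55-fold difference with an interval of 1.23 to 1.96. For total tRNA the authors' deposited table gave 0.01 (SE 0.26, DESeq2 adjusted p = 0.972). The charged minus total difference was 0.62 (95% interval 0.01 to 1.23). Its unadjusted p of 0.0447 was the 1 of the 16 under 0.05, and it did not pass over all probes (normal test, adjusted p = 0.44). With errors correlated at 0.5 the difference came closer but did not pass either (normal test, adjusted p = 0.0614).

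Cysteine, read by Cys_GCA, stood at 0.12 (SE 0.17) charged and -0.50 (SE 0.28) total in the authors' deposited tables. Neither passed (DESeq2 adjusted p = 0.666 and 0.177). Its charged minus total difference of 0.61 (95% interval -0.03 to 1.25) did not pass (normal test, adjusted p = 0.514, or 0.0995 with errors correlated at 0.5). With the total table turned, the difference would be -0.38 for Cys_GCA, 0.65 for Trp_CCA and -0.81 for Phe_GAA.

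Set side by side, the charged and total tables gave the same sign for 13 of the 16 probes, beside 50 of all 69; the exceptions were Cys_GCA, Gln_CTG and SeC_TCA. With the total table turned this would be 3 of the 16, beside 19 of all 69. The charged minus total difference, read with the same line as numerator in both tables, passed for 0 of the 16 (normal test on the 2 deposited errors, Benjamini-Hochberg over 69 probes), with 1 at an unadjusted p under 0.05. Over all probes 3 of 69 passed (4.35%), and 7 had an unadjusted p under 0.05. The 16 differences ran from -0.50 for Ser_TGA to 1.16 for SeC_TCA, with a median of 0.10, beside 0.06 over all probes. SE values of about 0.24 to 0.54 for all but SeC_TCA set how small a charging difference could be seen. With the numerator of the total table turned, 4 of the 16 would pass. With errors correlated at 0.5, 0 of the 16 passed. How many of all probes would pass under either setting was not counted, so the 4 cannot be read as particular to this set.

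Grouped by the class of their synthetase, the 6 class I probes had a median of 0.15 charged and -0.01 total, and the 10 class II probes 0.03 and -0.37. All 50 cytosolic probes had medians of 0.08 and -0.07. By the first anticodon base, both probes with A were positive in both tables as deposited, although Thr_AGT turned to -0.03 charged when re-centred on the median of all probes. Of all 10 cytosolic probes with A, 6 were positive charged and 4 total. The 3 with G had a median of 0.12 charged and -0.50 total, beside 0.13 and 0.22 for all 9 cytosolic probes with G. Of these 3, 1 was negative charged and 2 total, and 0 passed. The 5 with C had 3 negative values charged (Gln_CTG also turned, to -0.09, when re-centred) and 4 negative values total, where 7 and 11 of all 15 cytosolic probes with C were negative. The 6 with T spanned -1.10 to 0.53 charged and -1.23 to 0.99 total, and 2 of them passed in each table, beside 4 of all 16 cytosolic probes with T in each. The 10 probes without a long variable arm had medians of 0.06 and -0.11, and the 6 with one 0.18 and -0.03. These medians are descriptions of few probes measured in the same libraries. Those of class II and of the long variable arm count SeC_TCA, which had too few counts to compare.

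Of the 12 probes that passed in neither table, all but SeC_TCA had changes between -0.60 and 0.36 charged and between -0.79 and 0.72 total. Their 95% intervals allow at most a 1.28-fold (Gln_CTG) to 2.52-fold (Thr_CGT) difference for charged tRNA, and 1.30-fold (Gln_CTG) to 2.94-fold (Thr_CGT) for total tRNA. A probe that did not pass is thus not shown to be equal in the 2 lines, and the widest limits belong to Thr_CGT, which had the fewest counts among them.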

How the data were processed

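Charged and total tRNA libraries of mcf10a and HCC1806 followed a published probe method, per the labels' protocols. Per the submitters' processing notes the tools were DESeq2, HTSeq, featureCounts, SAMtools, STAR 2.5.2a and Bowtie2 2.4.1, listed with no role beside mm10, a mouse build. No source used here names the reference of the human probes.

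Both tables are DESeq2 results per the file headers. The deposited mean normalized count is a signal, the mean of counts divided by size factors. The deposited log2 fold change and SE are on the log2 scale, the deposited Wald statistic is a score (change over SE, checked), and the deposited p-values come from that statistic, with Benjamini-Hochberg adjustment (checked over 69 and 65 probes). No value per library was analysed here, which leaves out depth, replicate spread and refits.

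A probe passed at a deposited adjusted p under 0.05. Charged minus total and isoacceptor differences used the root of the summed squared SE, which takes errors as independent, and a two-sided normal test adjusted over all probes or pairs of a table. Intervals are 95%. Every probe of the set is named. Probes, groups and tests were chosen with earlier results of these data known. The tests were checked on simulated data drawn with independent normal errors of the deposited size, as the tests assume. That check cannot say whether the real errors are normal or independent. Python 3.11.15, numpy 2.4.6, pandas 2.3.3 and scipy 1.17.1 were used. Alternatives changed the adjustment, threshold, count minimum (100), centring, reference distribution and error correlation. Polysome, ribosome profiling and RiboTag tables hold no tRNA probe and were not used.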

Additional observations from a re-analysis of the deposited data

How the results depend on the processing

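The counts of probes that passed, 3 charged and 2 total, were the same when adjusted over every probe or over cytosolic probes, with mean normalized counts of at least 100, or re-centred on the median of all probes (0.12 charged, -0.02 total). Bonferroni left 2 charged, losing Thr_TGT, and 1 total, Glu_TTC; a threshold of 0.1 gave 4 and 3. With a t distribution of 4 degrees of freedom 0 passed in either table (DESeq2 changes and SE; 4 in each at the deposited unadjusted p under 0.05; smallest adjusted p 0.174 charged and 0.0903 total), and 0 isoacceptor pairs passed in either. With pair errors correlated at 0.5, 2 pairs passed in each table, those of Thr_AGT with Thr_TGT and Glu_CTC with Glu_TTC. Only the probes of the set and their pairs were counted under these alternatives. No share over all probes or pairs stands beside these counts, so they cannot be read as particular to the set.

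With the total table turned, 4 of the 16 charged minus total differences passed: Glu_TTC (1.52), SeC(e)_TCA (-2.33), Thr_CGT (-1.39) and Thr_TGT (-1.33). The number over all probes was not counted. Of these 4, Glu_TTC, SeC(e)_TCA and Thr_CGT changed sign, while Thr_TGT was negative either way. The sign also turned for Cys_GCA (-0.38), Glu_CTC (-0.26), Phe_GAA (-0.81), SeC_TCA (-0.21), Ser_AGA (0.87), Ser_CGA (-0.16), Ser_TGA (0.95) and Thr_AGT (0.19). Re-centring turned the charged sign of Gln_CTG (-0.087) and Thr_AGT (-0.031), and the difference of Gln_CTG (-0.077), Gln_TTG (-0.030), SeC(e)_TCA (-0.0093), Ser_CGA (-0.036) and Ser_GCT (-0.067), none of them called.

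No paired analysis was possible because the tables hold no value per library; leaving out a replicate and edgeR normalization were not run for the same reason.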
